A study of Mus musculus with 24 samples.

Results

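The genes described here are 10 factors of N6-methyladenosine (m6A) in mouse RNA, taken by name from the gene rows of the RNA-seq count files. They are 3 writers (Mettl3, Mettl14 and Wtap), 5 readers (Ythdc1, Ythdc2, Ythdf1, Ythdf2 and Ythdf3) and 2 erasers (Alkbh5 and Fto), among 55291 genes in the files. All 10 were found and all 10 passed the filter on low counts in every comparison. Zygotes of the B6D2F1 background received antisense oligonucleotides (ASOs) into the male pronucleus. MERVL-KD embryos received a mixture of 3 ASOs against MERVL, an endogenous retrovirus that is transcribed at the 2-cell stage, and control embryos received a scrambled ASO. Every embryo was therefore injected, and no uninjected group was analysed here. Total RNA was sequenced from pools of 30 embryos at the 2-cell, 4-cell and 8-cell stages, with 2 libraries for each of the 6 groups. The labels give 2-cell embryos an age of 1.5 days post coitum (dpc) and both 4-cell and 8-cell embryos 2.5 dpc, so the 4-cell and 8-cell groups differ in cleavage stage and not in the labelled day. The libraries are described as biological replicates, and p-values measure the spread between these pools.

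m6A is the most common internal modification of mRNA. It is laid down in the nucleus by a complex in which METTL3 is the catalytic subunit, METTL14 positions the RNA substrate and WTAP anchors the pair in nuclear speckles. Proteins with a YTH domain bind the mark: YTHDC1 acts in the nucleus, YTHDC2 is an RNA helicase needed for meiosis in germ cells, and the 3 YTHDF proteins act in the cytoplasm, where YTHDF2 recruits the CCR4-NOT deadenylase to its targets. ALKBH5 removes the mark, and FTO removes it and the related cap-adjacent mark m6Am. In the mouse the pathway is known for the clearance of maternal mRNA by YTHDF2 and for the silencing of retrotransposons by METTL3 and YTHDC1. The files hold RNA levels of these genes and no measurement of m6A itself or of the proteins.

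The deposited counts totalled 28167085 to 41482526 per library. MERVL-int, the internal part of the targeted element, took 1.07 to 6.57% of the counts in control libraries and 0.0278 to 0.157% in MERVL-KD libraries, and it was lower by 5.72, 5.53 and 5.40 on the log2 scale in 2-cell, 4-cell and 8-cell embryos. MT2_Mm, its long terminal repeat, was lower by 2.53, 1.63 and 1.03. Markers of cumulus cells, sperm and other somatic cells were near the floor, at a summed 0.256 to 4.05, 0.139 to 1.40 and 0.208 to 1.46 counts per 1000000 (CPM) over the 12 libraries. The summed level of 4 oocyte markers was 1000.05 to 1060 CPM in control 2-cell libraries, 623 to 717 CPM in MERVL-KD 2-cell libraries and 60.8 to 86.0 CPM in all 4-cell and 8-cell libraries. Counts are shares of a library, so less of an RNA per embryo and more of the other RNAs cannot be told apart.

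Levels were first compared between genes as CPM per kilobase of counted exon (RPKM), on one scale for the 12 libraries. These RPKM values divide by every annotated exon of a gene, so a gene with long or rarely used exons, such as Ythdc1 with 13651 exon bases and Fto with 13031, has a low value for its number of reads. Among the writers, Wtap stood far above its partners in every library. Wtap lay between 46.4 and 74.5 RPKM, Mettl3 between 2.06 and 3.67 RPKM and Mettl14 between 1.77 and 5.27 RPKM. Wtap therefore held 87.2 to 94.9% of the summed RPKM of the 3 writers. Among the erasers Alkbh5 lay between 9.37 and 46.4 RPKM and Fto between 0.1002 and 0.396 RPKM. The RPKM of Alkbh5 was 36.6 to 141 times that of Fto in the same library, and that of Wtap 15.8 to 34.6 times that of Mettl3. Fto rested on only 36 to 217 counts per library, the fewest of the 10 genes.

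In control 2-cell embryos the order by mean RPKM was Wtap, Ythdf3, Ythdf2, Alkbh5, Ythdf1, Ythdc1, Mettl3, Ythdc2, Mettl14 and Fto. The only neighbours whose libraries overlapped were Ythdf2, with 45.9 and 53.6 RPKM, and Alkbh5, with 41.9 and 46.4 RPKM. In MERVL-KD 2-cell embryos Wtap and Ythdf3 shared the top, at 46.5 and 51.1 RPKM and at 51.0 and 52.6 RPKM, and their libraries overlapped. From the 4-cell stage onward the top 4 places were held by Ythdf2, Wtap, Ythdf1 and Ythdf3 in both conditions, with no overlap between neighbours. Alkbh5 and Ythdc1 took the places that followed, and their libraries overlapped in 4-cell embryos of both conditions. Fto was last in all 6 groups.

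**Figure D1:**
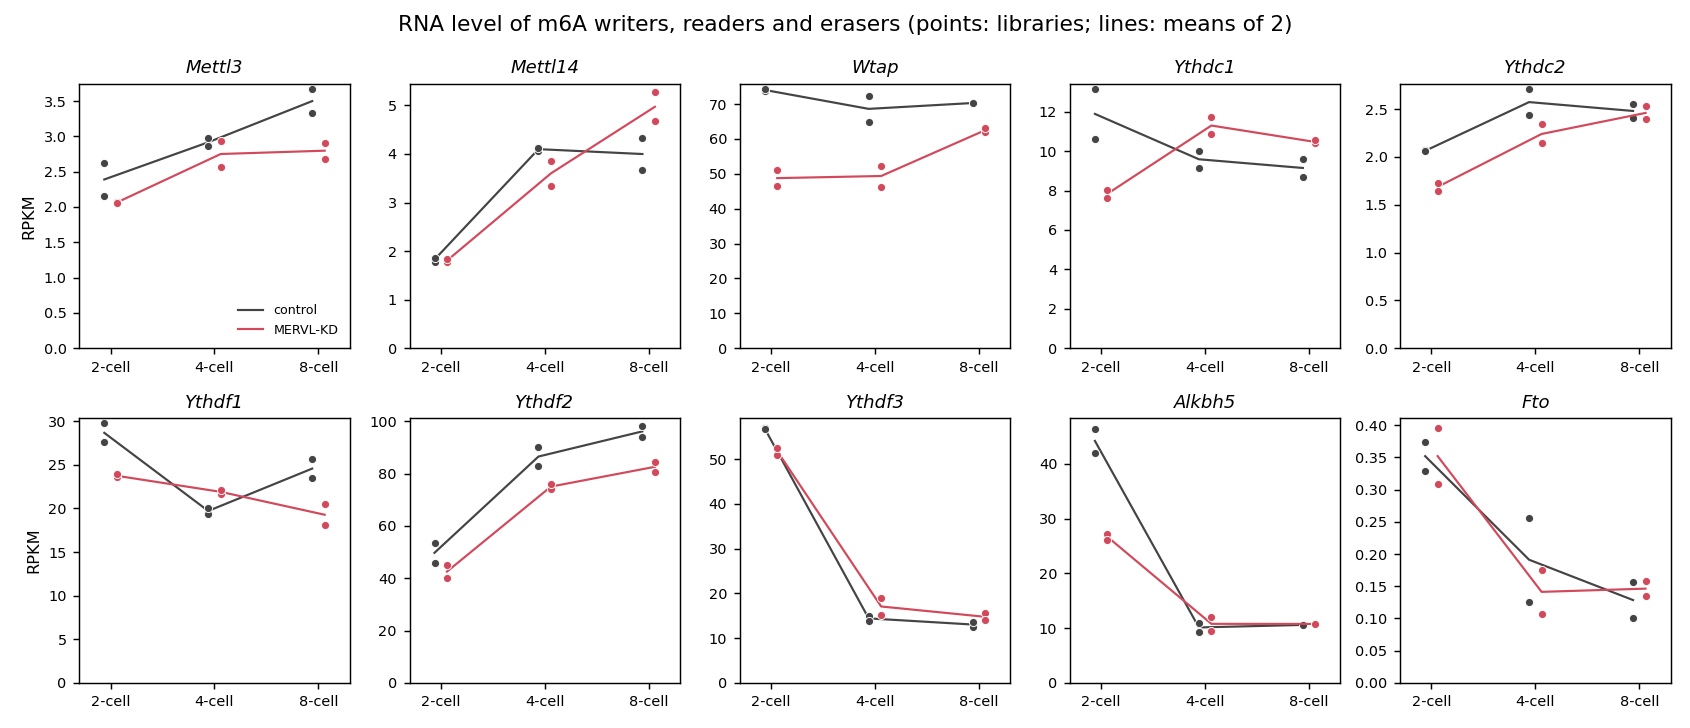
RNA level in RPKM (vertical axes, from 0, each gene on its own scale) of the 10 m6A factors at the 2-cell, 4-cell and 8-cell stages (horizontal axes) in control (grey) and MERVL-KD (red) embryos. Points are single libraries and lines join the means of 2. Ythdf3 and Alkbh5 drop after the 2-cell stage and Mettl14 and Ythdf2 rise in both conditions. Both MERVL-KD points of Wtap and of Ythdf2 lie below both control points at every stage. Ythdf2 passed the test against control at no stage, and Wtap did not pass at the 8-cell stage. By CPM scaled within a stage, 27, 26 and 25.4% of all genes separated in this direction in 2-cell, 4-cell and 8-cell embryos.

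The first comparison asked how these transcripts change through the cleavage stages of control embryos, in one edgeR quasi-likelihood fit of the 12 libraries. Between the 2-cell and the 4-cell stage 2 of the 10 genes rose and 4 fell at a Benjamini-Hochberg adjusted p under 0.05, where 26.4% of all genes tested rose and 28.7% fell. Alkbh5, the m6A demethylase, stood at 41.9 and 46.4 RPKM in 2-cell control libraries and at 10.9 and 9.37 RPKM in 4-cell control libraries, and it fell 4.36-fold (log2 fold change -2.13, SE 0.12, adjusted p = 2.27e-12). Ythdf3 stood at 56.9 and 56.8 RPKM and then at 15.0 and 13.9 RPKM, a 3.94-fold fall (log2 fold change -1.98, SE 0.11, adjusted p = 2.79e-12). Both transcripts were high at the 2-cell stage and low in the stages after it. Whether their RNA at the 2-cell stage was maternal or newly made was not tested.

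Ythdf2 and Mettl14 went the other way. Ythdf2 had 45.9 and 53.6 RPKM in 2-cell and 83.0 and 90.0 RPKM in 4-cell control libraries, a rise of 0.80 on the log2 scale (SE 0.10, adjusted p = 3.99e-07). Mettl14, the substrate-binding writer subunit, had 1.78 and 1.87 RPKM and then 4.07 and 4.13 RPKM, a rise of 1.17 on the log2 scale (SE 0.15, adjusted p = 1.22e-06). The RPKM of Mettl14 over that of Mettl3 was 0.679 and 0.867 in control 2-cell libraries and 1.42 and 1.39 in control 4-cell libraries. In control 8-cell libraries it was 1.003 and 1.30. The order of the 2 core subunits turned over only per kilobase of counted exon. By mean CPM in control 2-cell embryos Mettl14, at 13.5, was not below Mettl3, at 12.1. Ythdf1 fell by 0.54 (SE 0.11, adjusted p = 0.000214) and Ythdc1 fell by 0.31 on the log2 scale (SE 0.11, adjusted p = 0.0207). The Ythdc1 call was lost in 8 of 23 alternative settings, with adjusted p values up to 0.379: library-size scaling, a fit of only these 4 libraries, and the fits without control 2-cell replicate 2, control 4-cell replicate 1, MERVL-KD 4-cell replicate 2, control 8-cell replicate 1 or 2, or MERVL-KD 8-cell replicate 2.

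Mettl3 (log2 difference 0.29), Wtap (-0.11), Ythdc2 (0.32) and Fto (-0.89) did not pass the test over this interval. Fto passed in 3 of 23 settings, and its value rests on the control 4-cell libraries, at -0.46 without replicate 1 (adjusted p = 0.452) and -1.49 without replicate 2 (adjusted p = 0.0179). Ythdc2 passed in 2 of 23, library-size scaling (0.49, adjusted p = 0.0148) and a fit of only these 4 libraries (0.40, adjusted p = 0.0344). Between the 4-cell and the 8-cell stage of control embryos 0 of the 10 genes passed edgeR's test, where 5.87% of all genes did. Ythdf1 alone had an unadjusted p under 0.05, at a log2 difference of 0.32 (adjusted p = 0.0894), and it passed with DESeq2 (0.36, adjusted p = 0.0147). Over all genes the calls in this interval were 766 higher and 645 lower, and with library size alone 275 higher and 1648 lower.

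The make-up of the cytoplasmic readers turned over between the 2-cell and the 4-cell stage. Ythdf3 held 43.6 and 40.5% of the summed YTHDF RPKM in control 2-cell libraries, 12.7 and 11.2% at the 4-cell stage and 9.56 and 9.93% at the 8-cell stage. Ythdf2 held 35.2 and 38.2%, then 70.7 and 72.7%, then 72.4 and 71.4%. Ythdf1 stayed between 16.2 and 21.2% in control libraries. The MERVL-KD libraries went through the same turn, with Ythdf2 at 35.0 and 37.0% in 2-cell, 66.8 and 64.9% in 4-cell and 69.1 and 72.5% in 8-cell embryos. These shares are a description and carry no test.

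**Figure D2:**
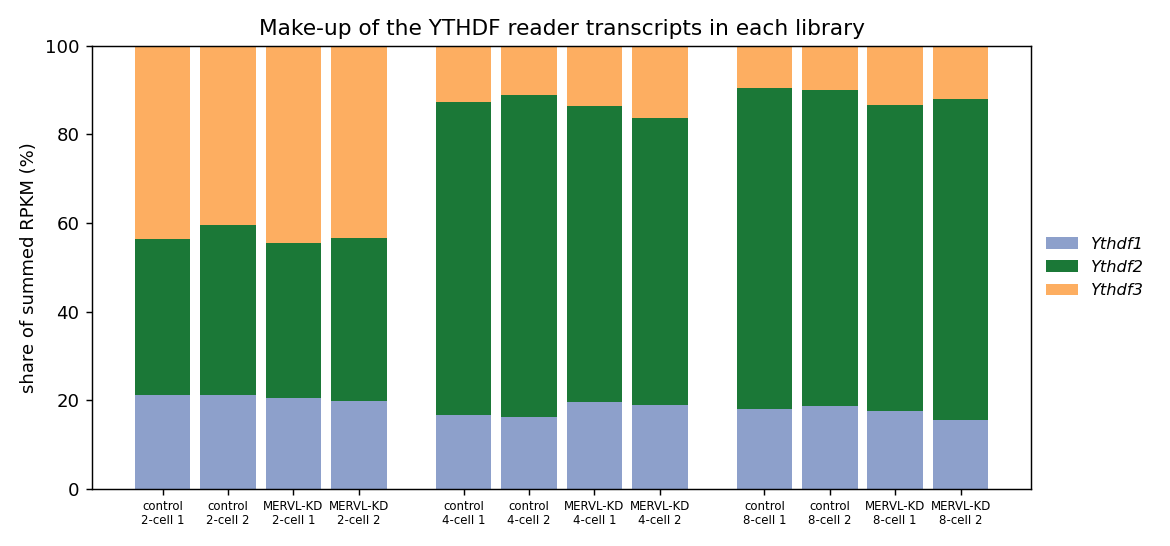
Share of Ythdf1, Ythdf2 and Ythdf3 in their summed RPKM (vertical axis, percent), 1 bar per library. Ythdf3 is the largest share in all 4 libraries of the 2-cell stage and Ythdf2 in all libraries of the 4-cell and 8-cell stages.

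MERVL-KD embryos were then followed across the same stages. From the 2-cell to the 4-cell stage 4 of the 10 genes rose and 3 fell, where 27.1% and 27.3% of all genes did. Ythdf3 fell by 1.60 (SE 0.11, adjusted p = 6.86e-11), Alkbh5 by 1.31 (SE 0.12, adjusted p = 3.91e-09) and Fto by 1.31 on the log2 scale (SE 0.40, adjusted p = 0.00877). Ythdf2 rose by 0.82 and Mettl14 by 1.00, beside 0.80 and 1.17 in control embryos. Ythdc1, which fell in control embryos, rose by 0.53 in MERVL-KD embryos (SE 0.11, adjusted p = 0.000328). Ythdc2 rose by 0.41 (adjusted p = 0.0327), a call that was lost in 13 of 23 settings, with adjusted p values up to 0.247. They include every fit without a library except those without control 4-cell replicate 1 or 2 and MERVL-KD 8-cell replicate 1. The Fto call was lost, with an adjusted p of up to 0.0875, when MERVL-KD 2-cell replicate 1 or MERVL-KD 4-cell replicate 2 was left out. From the 4-cell to the 8-cell stage Wtap alone of the 10 genes rose, by 0.34 (SE 0.09, adjusted p = 0.0405), where 2.27% of all genes rose. Over all genes 545 were higher and 580 lower there, and with library size alone 226 and 1020. That call was lost in 7 of 23 settings, with adjusted p values up to 0.282: library-size scaling, a fit of only these 4 libraries, and the fits without control 4-cell replicate 1 or 2, MERVL-KD 4-cell replicate 2 or MERVL-KD 8-cell replicate 1 or 2.

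The main comparison asked which m6A factors differ between MERVL-KD and control embryos at each stage. Here values are CPM scaled by TMM within a stage and each fit used the 4 libraries of that stage. In 2-cell embryos 3 of the 10 genes were lower at an adjusted p under 0.05 and 0 were higher, where 7.39% of all genes tested were lower and 6.7% higher. DESeq2 called 3 lower and 0 higher as well, and 3 had an unadjusted p under 0.05. They were 1 writer (Wtap), 1 nuclear reader (Ythdc1) and 1 eraser (Alkbh5). Alkbh5 had 255 and 276 CPM in the control libraries and 174 and 165 CPM in the MERVL-KD libraries, a log2 fold change of -0.64 (SE 0.09, adjusted p = 0.000115). Wtap had 467 and 461 CPM in control and 310.1 and 338 CPM in MERVL-KD, a log2 fold change of -0.52 (SE 0.08, adjusted p = 0.000414). Ythdc1 had 147 and 178 CPM in control and 111 and 116 CPM in MERVL-KD, a log2 fold change of -0.52 (SE 0.10, adjusted p = 0.00259). In each of the 3 genes both MERVL-KD libraries lay below both control libraries. Over the 10 genes the MERVL-KD libraries lay below in 6, above in 1 and overlapped in 3. Of all genes 27% lay below and 29.1% above. The residual level was 64.0% of control for Alkbh5, 69.8% for Wtap and 69.9% for Ythdc1, and 0 of the 10 genes passed edgeR's test with the 2-fold change that the study required, at this stage or later, where 6.61% of all genes did in 2-cell, 4.54% in 4-cell and 1.7% in 8-cell embryos.

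The scaling matters at this stage. With library size alone the median log2 fold change of all genes moved from 0.01 to 0.30 and the calls over all genes went from 1381 higher and 1523 lower to 4329 higher and 690 lower. Alkbh5 and Wtap remained past the test at -0.35 (adjusted p = 0.00656) and -0.23 (adjusted p = 0.0475), and Ythdc1 did not, at -0.23 (adjusted p = 0.0955). Under that scaling Ythdf3 changed sign, from -0.05 to 0.24, and passed the test as higher (adjusted p = 0.0447). Of the 4 oocyte markers 2 were also lower in MERVL-KD 2-cell embryos, Bmp15 and Oosp1, by 0.81 and 0.32 on the log2 scale. The other two did not pass the test, Gdf9 at -0.26 (adjusted p = 0.073) and Zp3 at 0.37 (adjusted p = 0.0952). Of the 4 markers of the 2-cell stage 3 were lower, Zscan4c (-1.47), Zfp352 (-0.74) and Usp17lc (-0.64). Their part in the result for the m6A factors was not tested.

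The core writer subunits Mettl3 and Mettl14 did not pass the test in 2-cell embryos. Mettl3 had 13.5 and 10.8 CPM in control and 11.2 and 11.0 CPM in MERVL-KD (log2 fold change -0.13, 95% CI -0.52 to 0.27), and the 4 libraries overlapped. Mettl14 had 13.4 and 13.7 CPM against 14.0 and 14.4 CPM (0.07, 95% CI -0.29 to 0.42). The cytoplasmic readers lay between -0.19 and -0.05, with intervals that leave room for a fall of 0.39 for Ythdf1, 0.34 for Ythdf2 and 0.22 for Ythdf3. Fto had 4.95 and 4.26 CPM against 5.51 and 4.25 CPM, and its interval, from -0.46 to 0.64, was the widest of the 10 genes.

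In 4-cell embryos Wtap was again lower, with 423 and 471 CPM in control and 343 and 303 CPM in MERVL-KD (log2 fold change -0.47, SE 0.10, adjusted p = 0.0105). It was the only one of the 10 genes past edgeR's test, where 5.84% of all genes were lower and 4.92% higher, and the only one past DESeq2's. With library size alone 808 genes were lower and 1080 higher in place of 1153 and 972, and Wtap was lower by 0.40 (adjusted p = 0.0364). Without control 4-cell replicate 2, the higher of the control libraries, its adjusted p was 0.0797. Ythdc1 and Alkbh5, which were low at the 2-cell stage, did not pass the test here. Ythdc1 had 131 and 142 CPM in control and 156 and 167 CPM in MERVL-KD (0.24, adjusted p = 0.146), so the MERVL-KD libraries now lay above the control ones. Alkbh5 had 68.0 and 58.4 CPM against 59.5 and 75.6 CPM (0.10, adjusted p = 0.749), and the libraries overlapped. In 4 of the 10 genes both MERVL-KD libraries lay below both control libraries and in 3 above, beside 26% and 28.3% of all genes. One of those above was Ythdf3, with 83.9 and 77.4 CPM against 85.2 and 106 CPM, which did not pass the test (0.25, adjusted p = 0.242) unless MERVL-KD 4-cell replicate 1 was left out (0.40, adjusted p = 0.0309).

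In 8-cell embryos 0 of the 10 genes passed edgeR's test, where 3.56% of all genes were lower and 1.5% higher. With library size alone 362 genes were lower and 565 higher in place of 656 and 276, and 0 of the 10 passed. DESeq2 called 0, and 3 of the 10 (Ythdf1, Ythdf2 and Mettl14) had an unadjusted p under 0.05. Wtap had 407 and 406 CPM in control and 361 and 367 CPM in MERVL-KD, a difference of -0.16 (95% CI -0.33 to 0.0048, adjusted p = 0.272). Ythdf1 came nearest to the threshold, with 72.4 and 78.5 CPM against 63.4 and 55.7 CPM (-0.34, adjusted p = 0.108), and it passed without MERVL-KD 8-cell replicate 1 (-0.44, adjusted p = 0.0239). Ythdf2 had 399 and 414 CPM against 344 and 359 CPM (-0.21, adjusted p = 0.158), and it passed without MERVL-KD 8-cell replicate 2 (-0.25, adjusted p = 0.0446). Mettl14 had 25.3 and 29.6 CPM against 36.5 and 32.2 CPM, the one writer with MERVL-KD libraries above the control ones (0.32, adjusted p = 0.237). In 8 of the 10 genes the 2 MERVL-KD libraries lay on one side of the 2 control libraries, 4 below and 4 above, beside 25.4% and 24.1% of all genes.

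**Figure D3:**
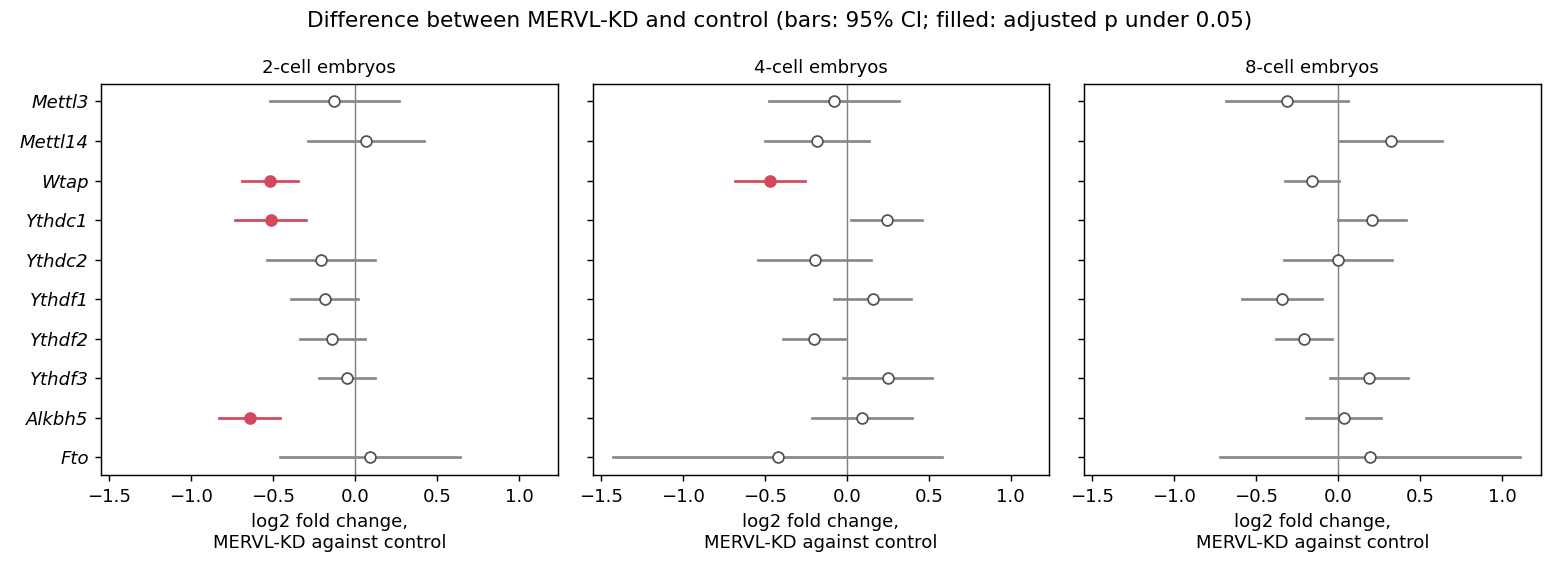
Log2 fold change of MERVL-KD against control (horizontal axis) for each of the 10 m6A factors (vertical axis) at the 3 stages. Bars are 95% confidence intervals and filled red points passed an adjusted p of 0.05. Wtap, Ythdc1 and Alkbh5 are red at the 2-cell stage, Wtap alone at the 4-cell stage and no gene at the 8-cell stage.

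Whether an effect differs between stages needs a test of the difference itself, so interaction contrasts were taken from the fit of all 12 libraries. Between the 4-cell and the 2-cell effects 2 of the 10 genes passed, Ythdc1 with a difference of 0.84 on the log2 scale (SE 0.16, adjusted p = 0.00292) and Alkbh5 with 0.82 (SE 0.16, adjusted p = 0.00579), where 4.16% of all genes did. The same pair passed between the 8-cell and the 2-cell effects, Ythdc1 with 0.80 (adjusted p = 0.00463) and Alkbh5 with 0.75 (adjusted p = 0.0101), where 4.03% of all genes did. Both contrasts share the 2-cell libraries, and the part of the developmental delay of MERVL-KD embryos in them was not tested. The Ythdc1 difference held in every setting run. The Alkbh5 difference was lost with library-size scaling in both contrasts, without MERVL-KD 4-cell replicate 2 in the first (adjusted p up to 0.101) and without control 8-cell replicate 1 or 2 in the second (adjusted p up to 0.0734). Between the 8-cell and the 4-cell effects 0 of the 10 genes passed edgeR's test, where 0.624% of all genes did. Ythdf1, Mettl14 and Wtap had an unadjusted p under 0.05 there, and DESeq2 passed 1 of the 10, Ythdf1 (-0.53, adjusted p = 0.038). For Wtap no difference between stages passed edgeR's test, with values of 0.13 between the 4-cell and the 2-cell stage (95% CI -0.15 to 0.40) and 0.43 between the 8-cell and the 2-cell stage (95% CI 0.16 to 0.71, adjusted p = 0.0716), and the latter passed with DESeq2 (0.42, adjusted p = 0.0396). With library size alone the calls over all genes went from 604 positive and 395 negative to 225 and 1275 in the first contrast and from 575 and 393 to 273 and 931 in the second. Between the 8-cell and the 4-cell effects they went from 66 positive and 84 negative to 89 and 66.

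The promoter sequences of the 3 genes that were lower in MERVL-KD 2-cell embryos are shown because all 3 were lower there. RefSeq start sites on GRCm38 were held for 7 of the 10 genes. Each line gives the 250 bases before the start, 5′ to 3′ on the strand of the gene, with the letters GGGCGG or their complement CCGCCC (a GC box) in capitals. The windows are chr17:12992544-12992793 on the minus strand for Wtap, the most upstream of its 3 start sites, chr5:86804016-86804265 on the plus strand for Ythdc1, and chr11:60537433-60537682 on the plus strand for Alkbh5.
Wtap: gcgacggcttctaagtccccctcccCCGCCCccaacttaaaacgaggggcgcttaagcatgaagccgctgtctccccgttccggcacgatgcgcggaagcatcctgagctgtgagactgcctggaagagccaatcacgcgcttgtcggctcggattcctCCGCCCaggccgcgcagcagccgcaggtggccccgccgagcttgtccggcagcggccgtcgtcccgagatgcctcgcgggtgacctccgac
Ythdc1: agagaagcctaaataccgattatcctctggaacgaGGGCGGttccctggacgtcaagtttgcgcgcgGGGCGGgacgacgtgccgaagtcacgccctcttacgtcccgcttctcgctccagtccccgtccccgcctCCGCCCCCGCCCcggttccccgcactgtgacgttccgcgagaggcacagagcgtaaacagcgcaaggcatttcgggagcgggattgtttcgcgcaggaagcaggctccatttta
Alkbh5: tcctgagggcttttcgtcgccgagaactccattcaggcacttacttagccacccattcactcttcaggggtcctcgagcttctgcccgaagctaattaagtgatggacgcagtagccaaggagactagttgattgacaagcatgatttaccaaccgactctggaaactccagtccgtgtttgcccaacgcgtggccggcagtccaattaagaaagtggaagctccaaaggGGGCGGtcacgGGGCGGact
All 3 hold a GC box, as do Ythdf1 and Ythdf2, whose RNA did not pass the test at the 2-cell stage, and 32.7% of all 32851 promoter windows of this length. Mettl3 and Fto hold none. CCAAT, read on both strands, is in the windows of Wtap, Alkbh5 and Ythdf1 and in 33.8% of all windows. CGGAAG, an ETS core, is in those of Wtap and Ythdf2 and in 13.6%, and CACGTG, an E-box, is in that of Ythdf1 and in 6.02%. A match of letters is a description and does not show binding.

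The oligonucleotides themselves were searched for near these genes. On GRCm38, 1903 sites matched a MERVL ASO with up to 2 mismatches, and 0 of them lay on the transcribed strand within any of the 10 genes, where 0.757% of the 20604 genes tested at the 2-cell stage held one. With up to 4 mismatches 1 of the 10 held a site, beside 4.92% of all genes. It was an intronic match of the second ASO in Fto (chr8:91438954-91438973), a gene whose level did not pass the test at any stage. The start of Alkbh5 lay 119 kb from the nearest site of up to 2 mismatches, the closest of the 10, that of Wtap 3263 kb and that of Ythdc1 5121 kb, and the median over all genes was 1027 kb.

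Other genes of m6A biology were read from 5 lists, 30 genes in all. In 2-cell embryos 8 of the 30 were lower and 1 was higher in MERVL-KD, where 7.39% of all genes were lower and 6.7% higher. The median of the 30 was -0.06 and that of all genes 0.01. Among the 5 partners of the writer complex 3 were lower. Rbm15, which guides the complex to RNA, had 152 and 156 CPM in control and 65.4 and 82.4 CPM in MERVL-KD (log2 fold change -1.06, SE 0.11, adjusted p = 9.61e-06). Cbll1, which encodes the HAKAI subunit, was lower by 0.47 (adjusted p = 0.00867) and Zc3h13, which keeps the complex in the nucleus, by 0.32 (adjusted p = 0.0373). Virma and Rbm15b, the close relative of Rbm15, did not pass the test, at -0.08 and 0.26.

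Of the 9 other reported m6A-binding proteins 4 were lower in 2-cell embryos. Rbmx, a nuclear RNA-binding protein gene on the X chromosome, had 78.3 and 105 CPM in control and 37.9 and 49.6 CPM in MERVL-KD (-1.07, SE 0.15, adjusted p = 0.000304). Fmr1 was lower by 0.52, Hnrnpc by 0.36 and Hnrnpa2b1 by 0.27 on the log2 scale (adjusted p = 0.00219, 0.0105 and 0.0436). In the cycle of S-adenosylmethionine, the methyl donor, Mat2b was lower by 0.48 (adjusted p = 0.00105). Pcif1, the writer of cap-adjacent m6Am, was higher, at 17.0 and 15.7 CPM against 11.0 and 10.2 CPM (0.63, SE 0.17, adjusted p = 0.0211). The Zc3h13 and Hnrnpa2b1 calls were each lost without control 2-cell replicate 2 or MERVL-KD 2-cell replicate 2 and with the replicate block, that of Hnrnpa2b1 also in a non-robust fit, and the Hnrnpc call without MERVL-KD 2-cell replicate 1. With library-size scaling 2 of the 8 lower genes, Rbm15 and Rbmx, still passed and 7 of the 30 were higher. Pcif1 lost its call, with adjusted p values up to 0.144, without control 2-cell replicate 1 or 2, without MERVL-KD 2-cell replicate 1, and with all 12 libraries in one fit.

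In 4-cell embryos 3 of the 30 were lower and 2 higher, where 5.84% of all genes were lower and 4.92% higher, so these counts are near the share of all genes. Nxf1, the mRNA export receptor and a partner of YTHDC1, had 208 and 211 CPM in control and 115 and 118 CPM in MERVL-KD (-0.84, SE 0.09, adjusted p = 0.000151). Igf2bp3, an m6A-binding protein gene, was lower by 0.87 (adjusted p = 0.00821) and Hnrnpc by 0.40 (adjusted p = 0.0101). On its transcribed strand Igf2bp3 holds 1 site of a MERVL ASO with up to 4 mismatches and 0 with up to 2. The part of this site was not tested. Elavl1, an RNA-stabilising protein gene, was higher by 0.46 (adjusted p = 0.0266) and Meioc, a partner of YTHDC2 in meiosis, by 0.85 from 6.08 and 8.03 CPM to 10.7 and 14.8 CPM (adjusted p = 0.0464). The Hnrnpc call was lost without control 4-cell replicate 1 (adjusted p = 0.0658), the Elavl1 call without either control 4-cell library, and the Meioc call in 4 of 15 settings, among them the fits without control 4-cell replicate 1 or MERVL-KD 4-cell replicate 2.

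In 8-cell embryos 29 of the 30 were tested, 4 were lower and 0 higher, where 3.56% of all genes were lower and 1.5% higher. Nxf1 remained lower by 0.74 (adjusted p = 0.000712), with 170 and 158 CPM in control and 95.7 and 101 CPM in MERVL-KD. Hnrnpc was lower by 0.36 (adjusted p = 0.0309), so this gene passed the test at all 3 stages. Mat2a, the catalytic subunit of S-adenosylmethionine synthesis, was lower by 0.46 and its regulatory partner Mat2b by 0.43 on the log2 scale (adjusted p = 0.00735 and 0.0323). The Hnrnpc and Mat2b calls were lost with library-size scaling and without either control 8-cell library, with adjusted p values up to 0.154 and 0.148.

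**Figure D4:**
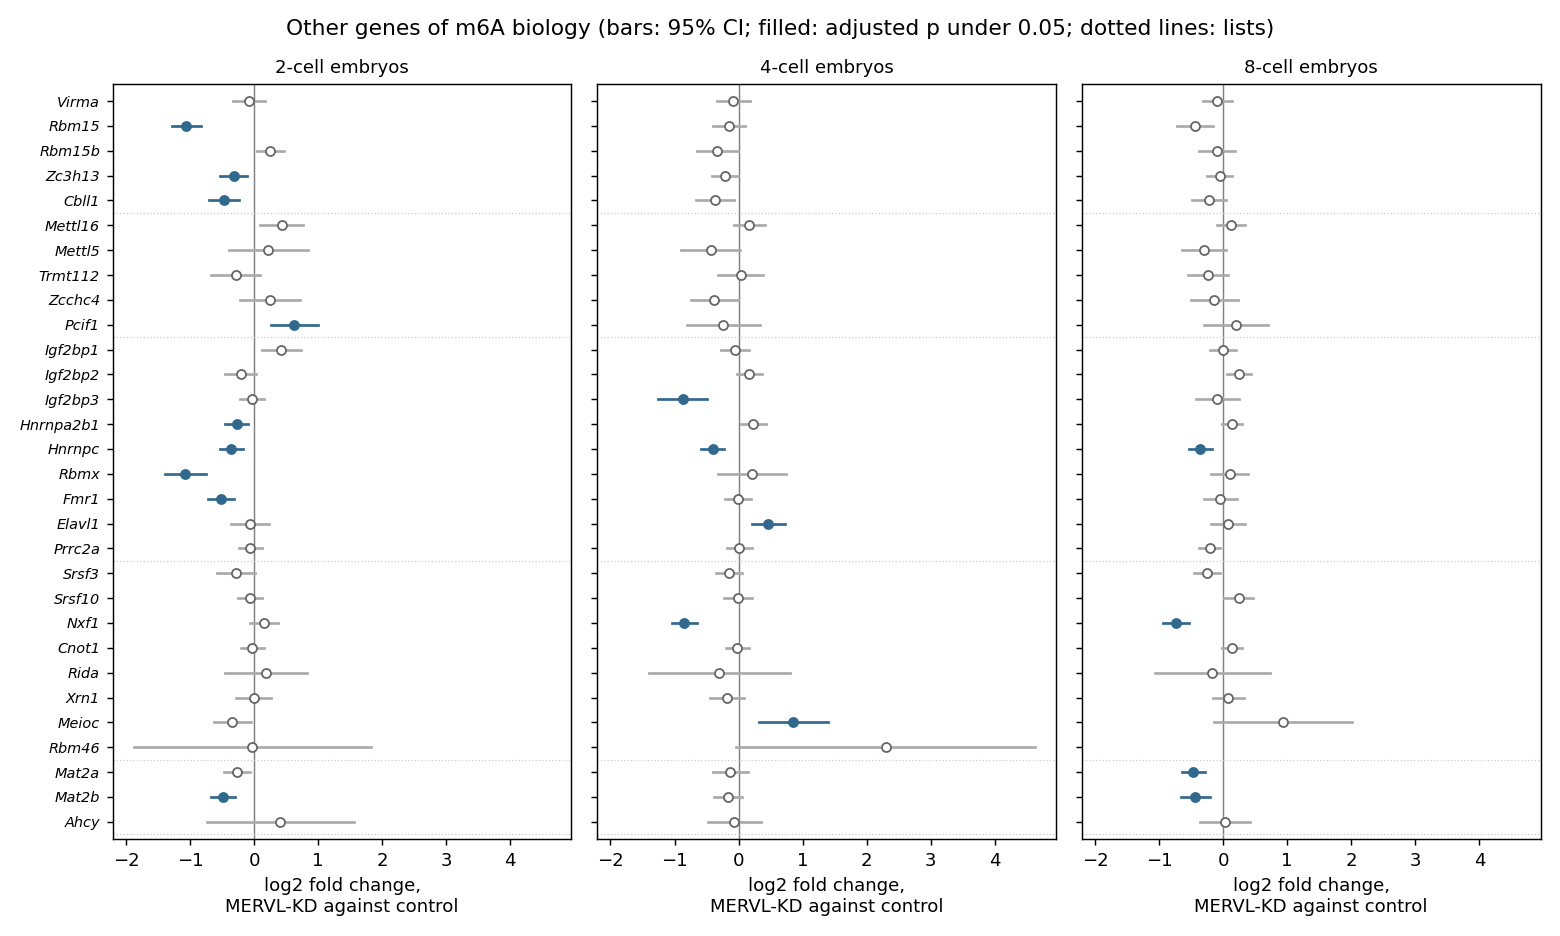
Log2 fold change of MERVL-KD against control (horizontal axis) for the 30 other genes of m6A biology (vertical axis) at the 3 stages, with 95% confidence intervals. Filled points passed an adjusted p of 0.05 and dotted lines part the 5 lists. Rbm15 and Rbmx lie furthest to the left at the 2-cell stage and Nxf1 is filled at the 4-cell and 8-cell stages.

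The genes whose log2 CPM ran most alike over the 12 libraries were listed for 1 member of each role. For Mettl3 they were Ell3, Hes1 and Sft2d1 (Pearson r 0.96, 0.95 and 0.94). Ell3 lay near the floor, at 0.166 to 2.07 CPM over the 12 libraries. For Ythdf2 they included Atxn7l3 and Otub1 (r 0.99 each), and for Alkbh5 they were Hyls1, Akirin2 and Uchl3 (r 0.99 each). These values describe 12 libraries that share 3 stages and carry no test.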

How the data were processed

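The deposited counts are raw counts of uniquely aligned reads per GENCODE gene and per repeat family, made by the authors with STAR 2.5.3a on GRCm38 and featureCounts, without normalization. Most genes with 1 to 50 counts had even counts (71.8 to 74.7% per library), which is the pattern of read pairs counted mate by mate, so the number of independent fragments is smaller than the counts. From the counts, fold changes were computed with edgeR 4.0.16 in R 4.3.3 (filterByExpr, TMM, robust quasi-likelihood test), stage by stage for MERVL-KD against control and in one fit of 12 libraries for stages and interactions, with Benjamini-Hochberg adjustment over all genes and repeat families tested. Shares of all genes leave repeat families out. CPM is the count per 1000000 TMM-scaled reads and RPKM is CPM per kilobase of counted exons. The 10 genes and all lists were chosen with earlier results of these data known. Named are the 10 genes, list genes past the test, the target and, by a rule of likeness, 3 genes for each of 3 members, of which 1 is not reported here. The likeness used log2 of CPM plus 0.5. The fits were tested on simulated data. Alternatives were DESeq2 1.42.0, its size factors, library size alone, other filters, rows left out, a non-robust fit, the replicate block, other sets of libraries, each library left out, the 2-fold threshold and, added after the data were seen, halved counts. An unnamed transcript, Gm43055, shares exon bases with Ythdc1 on its strand, and Tox4 shares some with Mettl3 on the other strand. Fto also shares exon bases with Gm45427 and 4831440D22Rik, both on the other strand. Reads in these places are uncertain. ATAC-seq files were not used here.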

Additional observations from a re-analysis of the deposited data

Results flagged for a closer look

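The effect of MERVL-KD on 2 genes, the nuclear reader Ythdc1 and the eraser Alkbh5, differed between stages by the interaction test in edgeR. For Ythdc1 the 4-cell minus 2-cell difference was 0.84 and the 8-cell minus 2-cell difference was 0.80 on the log2 scale. For Alkbh5 these differences were 0.82 and 0.75. All 4 were flagged because the effect at the 2-cell stage and the effect at a later stage differed, and all rest on the same 4 libraries of 2-cell embryos. Groups of 2 libraries were not tested for outlying libraries.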

How the results depend on the processing

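Alkbh5, Wtap and Ythdc1 remained lower in MERVL-KD 2-cell embryos in every alternative run, except for Ythdc1 with library size alone and all 3 with the 2-fold threshold. With library size alone, 1 of the 10 genes (Ythdf3, at 0.24) was higher in 2-cell embryos. Values below the threshold that changed sign there were Mettl3 at 0.16, Ythdc2 at 0.081, Ythdf1 at 0.10 and Ythdf2 at 0.15. The same scaling gave Ythdc2 0.13 in 8-cell embryos, and for Wtap 0.059 from 2-cell to 4-cell control embryos and -0.11 in MERVL-KD embryos. Of the 30 other m6A genes it left 7 higher with 2 lower (2-cell embryos) and 3 higher with 2 lower (8-cell embryos). It left 0 of the 10 genes higher from 4-cell to 8-cell MERVL-KD embryos, and 1 of 2 in both interaction contrasts with 2-cell embryos. It moved the median of all genes by over 0.1 on the log2 scale in 8 of 10 comparisons.

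The 2-fold threshold left 0 of the 10 genes in 2-cell and 4-cell embryos. Of the 30 others it left 0 higher with 2 lower (2-cell embryos) and 0 in either direction later. With at least 1 count, 3 of the 30 were higher in 2-cell embryos and 1 in 8-cell embryos. One fit of all 12 libraries left 0 of the 30 higher in 2-cell and 1 in 4-cell embryos, and a non-robust fit also left 1 in 4-cell embryos. DESeq2, and its size factors in edgeR, called 1 gene each (Ythdf1) from 4-cell to 8-cell control embryos. DESeq2 called 2 in MERVL-KD embryos over that interval, where a fit of only those 4 libraries called 0, and 1 between the effects in 8-cell and 4-cell embryos.

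Apart from the fits with a library left out, the other sign changes were of values near 0 that did not pass the test. Mettl14 was -0.018 in 2-cell embryos with all 12 libraries in one fit. Ythdc2 in 8-cell embryos was 0.025 with at least 1 count, 0.018 when each library needed 10 counts, 0.011 without repeat families and 0.0096 with halved counts. Wtap from 2-cell to 4-cell MERVL-KD embryos was -0.027 with DESeq2 size factors, -0.026 with DESeq2, -0.010 with at least 1 count and -0.13 when each library needed 10 counts.

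Each library was left out in turn, and the lone sample of its group was assumed to vary like the other group. The 10 genes then gave 3 lower in 2-cell embryos throughout, 0 to 1 lower and 0 to 1 higher in 4-cell embryos, and 0 to 1 lower in 8-cell embryos. The 30 others gave 0 to 3 higher in 2-cell embryos, 0 to 2 higher in 4-cell embryos, and 2 to 6 lower and 0 to 1 higher in 8-cell embryos. From 4-cell to 8-cell MERVL-KD embryos 0 to 1 of the 10 rose, and 1 to 2 passed in both interaction contrasts with 2-cell embryos. Fold changes that crossed 0 ranged from -0.29 to 0.019 (Mettl3) and -0.12 to 0.25 (Fto) in 2-cell embryos, from -0.18 to 0.011 (Mettl3), -0.090 to 0.25 (Alkbh5) and -0.85 to 0.16 (Fto) in 4-cell embryos, from -0.047 to 0.048 (Ythdc2) and -0.085 to 0.55 (Fto) in 8-cell embryos, and from -0.078 to 0.10 for Wtap from 2-cell to 4-cell MERVL-KD embryos. Beyond the fewer samples or genes that these settings hold, the cause was not tested.

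Over all genes, libraries with the same replicate number showed little shared deviation, with correlations of -0.052, 0.0079 and 0.026 for 2-cell, 4-cell and 8-cell embryos. With the replicate block 3, 1 and 0 of the 10 genes were lower in these embryos, and 6, 3 and 5 of the 30 others, and the 2-cell calls of Zc3h13 and Hnrnpa2b1 were lost. The block raised the calls over all genes in 8-cell embryos, from 276 higher and 656 lower to 455 and 884. In 2-cell and 4-cell embryos it lowered both counts. Depth limits Fto most, at 36 to 217 counts.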
